A study of Homo sapiens with 9 samples.

Results

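The genes described here encode tubulins, stathmins and the subunits of the motors that move along microtubules. They were taken by gene symbol from the count tables, which hold 88 of them among 42785 genes listed: 22 tubulins (9 alpha, 9 beta and 4 others), 4 stathmins, 39 kinesin heavy chains, 4 kinesin light chains, 13 dynein subunits and 6 dynactin subunits. The choice used symbols only and no measured value.

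Microtubules are hollow polymers of alpha- and beta-tubulin that run along axons and form the mitotic spindle, and gamma-tubulin nucleates them. Stathmins bind free tubulin and favour disassembly. Kinesins mostly walk towards the growing ends, which in axons carries cargo away from the cell body, while cytoplasmic dynein, with its cofactor dynactin, walks the other way. Several mRNAs of this kind are known from axons, where growth cone steering depends on the microtubules.

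The libraries came from SH-SY5Y, a single human neuroblastoma line grown in serum-containing medium, and no guidance cue is named for them in the labels. RNA was recovered from cell lysate with beads carrying a mouse antibody against DCC, the receptor of Netrin-1 (DCC-IP), or a rabbit antibody against Nrp1, a receptor of Sema3A (Nrp1-IP), and Input is the whole lysate. Each of these 3 groups has 3 libraries, 9 in all, made from cDNA amplified with a single-cell method. The comparisons ask which mRNAs came down with each receptor beyond their level in the lysate, and which differed between the receptors. The methods of the study describe its experiments in general as repeated in independent biological replicates. The labels do not say so of these libraries, and p-values measure the spread between them. The antibodies differ in host species as well as target, and no library of a control pulldown with IgG was analysed here, so that these libraries alone cannot tell apart RNA held by a receptor and RNA held by beads or antibody.

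Gene counts came to 8838296 to 11055895 in a library. The floor of detection used here, 3 counts, stands at 0.208 to 0.387 CPM, the unit of counts scaled to library size with TMM factors. The libraries stood apart in breadth. At least 1 count was found for 38, 60 and 67 of the 88 genes in Input replicates 1 to 3, for 32, 44 and 57 with DCC-IP and for 45, 49 and 63 with Nrp1-IP. Among the genes with 10 or more counts over the 9 libraries and any count in DCC-IP, replicate 3 was the highest of the DCC-IP libraries for 40 of 60 (66.7%), against 45.6% of all genes. A single gene, MAP1B, took 40.3% to 52.1% of the DCC-IP counts and 1.58% to 2.44% elsewhere. Of 10 markers of sympathetic neuroblasts, 9 were over the floor in some library and the enzyme gene TH was at 0 in all 9, with a summed level of 276 to 466 CPM in Input, 1240 to 4010 with DCC-IP and 1010 to 1350 with Nrp1-IP. The blood markers were at 0 in all libraries. The part of these differences in the results was not tested.

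Most of the 88 mRNAs were rare in these libraries. Together they held 75745 counts, which was 0.05% to 0.175% of the gene counts of a library. Of these, 52.7% fell on KIF5A and 20.7% on KIF21A. In all, 12 genes were at 0 in every library, 13 had 1 to 9 counts over the 9 libraries, and 63 had 10 or more. Over the floor were 65 genes in at least 1 library and 14 in all 9 (DCTN2, DYNLL1, KIF14, KIF15, KIF1B, KIF21A, KIF23, KIF2C, KIF3A, KIF3B, KIF5A, KLC1, STMN1 and TUBB3). After the filter on low counts, 42 of the 88 entered at least 1 comparison, so that no fitted fold change is given for the other 46. Counts grow with transcript length and no length was used, so levels are compared between libraries and not between genes.

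**Figure D1:**
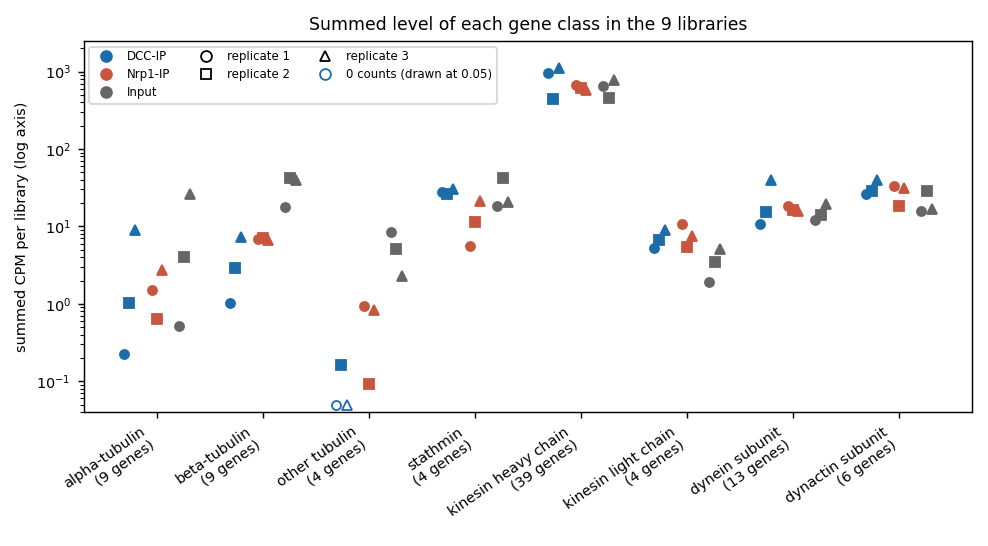
Summed CPM of the genes of each class in each library, on a log axis, with colours for DCC-IP, Nrp1-IP and Input and marker shapes for the replicate number. The tubulin classes spread widely between replicates, while kinesin heavy chains stayed between 442 and 1120 CPM in the 9 libraries.

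Single tubulin mRNAs were mostly close to the floor in the pulldowns. The 22 tubulin genes together had 208, 428 and 547 counts in Input, 11, 51 and 232 with DCC-IP and 100, 86 and 135 with Nrp1-IP. Scaled, Input was at 26.9, 51.2 and 68.9 CPM, DCC-IP at 1.25, 4.09 and 16.1 and Nrp1-IP at 9.36, 7.93 and 10.2. Every Input library lay above every pulldown library, and the DCC-IP libraries spanned the Nrp1-IP range. As a share of gene counts, without TMM factors, DCC-IP replicate 3 (0.0022%) passed Input replicate 1 (0.0019%).

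The alpha-tubulins are near-identical genes, and reads that align to more than 1 place (2.83% to 3.83% of a library) were not counted on genes, so the counts of a single member are uncertain. TUBA1B, a widely expressed alpha-tubulin, had 0, 13 and 122 counts in Input, 2, 3 and 42 with DCC-IP and 0, 0 and 5 with Nrp1-IP. TUBA1A, the main alpha-tubulin of developing neurons, had 0, 13 and 74 in Input, 0, 1 and 4 with DCC-IP and 0, 0 and 1 with Nrp1-IP. Replicate 3 was highest in every group for both genes, and Input replicate 1 held none of either. TUBA3E had 4, 6 and 2 counts in Input, 0, 2 and 3 with DCC-IP and 8, 3 and 15 with Nrp1-IP. Over a group, TUBA1A had 87 counts in Input and 1 in Nrp1-IP, a ratio of 126 (exact 95% counting interval 22.0 to 5030) that rests on 2 of the 3 Input libraries. These intervals, from reads without molecular identifiers, cover counting error only.

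Among the beta-tubulins, TUBB3, the neuronal beta-tubulin, was the best measured. It had 55, 231 and 203 counts in Input, 9, 34 and 49 with DCC-IP and 35, 23 and 14 with Nrp1-IP. In CPM, Input was at 20.1 ± 11.3 (SD, n = 3), DCC-IP at 2.38 ± 1.23 and Nrp1-IP at 2.15 ± 1.11. The lowest Input library (7.10 CPM) was above the highest pulldown library (3.40 CPM). The log2 fold change over Input was -2.86 in DCC-IP (SE 1.01, adjusted p = 0.136 by the quasi-likelihood test of edgeR, Benjamini-Hochberg adjusted) and -3.11 in Nrp1-IP (SE 0.72, adjusted p = 0.051), and neither passed the threshold of 0.05. The Nrp1-IP value passed in the same test with RLE size factors in place of TMM (adjusted p = 0.044), without the filter (0.00072) and with 10 counts or more in every library (0.016). It also passed in the exact test (adjusted p = 0.00489), the likelihood ratio test (0.00356) and DESeq2 (0.000181), and DESeq2 called the DCC-IP value as well (0.00662). By the quasi-likelihood test, the Nrp1-IP value did not pass with library size only (adjusted p = 0.0624) or all 9 libraries in one fit (0.127). Nor did it with the replicate block (0.0515), with MAP1B removed (0.0506) or in any of the 6 fits without 1 library. Over all genes, the main fit of Nrp1-IP over Input called 197 lower. Without Nrp1-IP replicates 1, 2 and 3 it was 0, 7 and 7, and without Input replicates 1, 2 and 3 it was 74, 126 and 330.

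TUBB6, a beta-tubulin isotype found in many tissues, had 79, 66 and 12 counts in Input, 0, 0 and 2 with DCC-IP and 32, 35 and 36 with Nrp1-IP. The DCC-IP libraries were all under the floor, and they did not overlap with either of the other groups. With 103 counts over the Nrp1-IP libraries and 2 over DCC-IP, the scaled ratio was 52.8 (exact 95% counting interval 14.3 to 442), and Input over DCC-IP it was 117 (31.8 to 971). By the quasi-likelihood test of edgeR, Benjamini-Hochberg adjusted, the adjusted p was 0.127 for Nrp1-IP over DCC-IP and 0.0758 for DCC-IP over Input, so neither difference was called. The exact test, the likelihood ratio test and DESeq2 called both. With all 9 libraries in one fit, the quasi-likelihood test called TUBB6 lower in DCC-IP over Input (log2 fold change -6.7, adjusted p = 0.02). In that fit, Nrp1-IP over DCC-IP was not called (adjusted p = 0.0658). Over Input, Nrp1-IP overlapped with it, at a log2 fold change of -1.03 (SE 0.76). TUBB6 overlaps with the gene AFG3L2 in RefSeq. The strand setting of the counting is not given in the sources used here, so how reads in the shared stretch were counted is not known.

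TUBB4B, another common isotype, had 0, 15 and 56 counts in Input, 0, 0 and 36 with DCC-IP and 0, 1 and 0 with Nrp1-IP. TUBD1, which encodes delta-tubulin of the centrioles, had 65, 20 and 10 counts in Input, 0, 2 and 0 with DCC-IP and 10, 1 and 11 with Nrp1-IP. The DCC-IP libraries of TUBD1 were all below Input, with a ratio of 70.6 for Input over DCC-IP (exact 95% counting interval 19 to 591) and an adjusted p of 0.118 (quasi-likelihood test of edgeR, Benjamini-Hochberg adjusted). The likelihood ratio test (adjusted p = 0.0222) and DESeq2 (0.00948) called TUBD1 lower, and the exact test did not (0.0508). TUBG1, one of the gamma-tubulins, was read in Input alone (0, 21 and 7 counts) and was at 0 in all 6 pulldown libraries. Against 3 counts over a group, its Input level was at least 13.9-fold higher than in DCC-IP and at least 13.5-fold higher than in Nrp1-IP, resting on 2 Input libraries. TUBG2 had 0, 2 and 1 counts in Input. Of the 22 tubulins, TUBA3C, TUBA4A, TUBA4B, TUBB1, TUBB8 and TUBE1 were at 0 in all 9 libraries, and TUBB had a single count. Tubulin mRNAs are generally abundant in neuroblastoma lines, and TUBA1A, TUBA1B and TUBB were unusually low in the whole lysate here, with all 3 at 0 in Input replicate 1. The cause was not tested.

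Of the stathmins, STMN1, the main form of dividing and immature cells, was read in every library. It had 141, 247 and 128 counts in Input, 245, 331 and 419 with DCC-IP and 60, 123 and 162 with Nrp1-IP. In CPM, Input was at 18.2, 29.5 and 16.1, DCC-IP at 27.7, 26.5 and 29.1 and Nrp1-IP at 5.62, 11.3 and 12.2. The Nrp1-IP libraries were below all 6 others, and DCC-IP overlapped with Input. Without TMM factors, Nrp1-IP stayed below DCC-IP and overlapped with Input. Nrp1-IP over DCC-IP gave a log2 fold change of -1.66 (SE 0.64, adjusted p = 0.215 by the quasi-likelihood test of edgeR, Benjamini-Hochberg adjusted), Nrp1-IP over Input -1.02 (SE 0.48, adjusted p = 0.267), and DCC-IP over Input 0.52 (SE 0.64, adjusted p = 0.699). None of these passed. RefSeq places 4 genes that overlap with STMN1, among them 2 pseudogenes and a microRNA.

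The neuronal stathmins were sparse and uneven. STMN2 had 0, 5 and 22 counts in Input, 0, 0 and 22 with DCC-IP and 0, 1 and 21 with Nrp1-IP, so that replicate 3 of each group held nearly all of its reads. STMN3 had 95 counts in Nrp1-IP replicate 3, 104 in Input replicate 2, 14 in Input replicate 3, 1 in DCC-IP replicate 3 and 0 in the other 5 libraries. STMN4 was found once, with 5 counts in Nrp1-IP replicate 3. STMN3 alone was tested, in Nrp1-IP over Input, at a log2 fold change of -0.78 (SE 2.1). No difference between groups was detectable for these at this depth and spread.

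Kinesin heavy chains carried most of the counts. KIF5A, the neuron-enriched heavy chain of conventional kinesin that transports vesicles along axons, had 4108, 2577 and 2225 counts in Input, 5407, 3308 and 6193 with DCC-IP and 5664, 5160 and 5268 with Nrp1-IP. It was at 373 ± 137 CPM in Input, 436 ± 174 with DCC-IP and 468 ± 67.3 with Nrp1-IP (SD, n = 3 each), and the ranges of all 3 groups overlapped. Without TMM factors, Nrp1-IP lay above Input. The log2 fold changes were -0.01 for Nrp1-IP over DCC-IP (SE 0.34, adjusted p = 0.993 by the quasi-likelihood test of edgeR, Benjamini-Hochberg adjusted), 0.32 for DCC-IP over Input (SE 0.42, adjusted p = 0.721) and 0.40 for Nrp1-IP over Input (SE 0.35, adjusted p = 0.572). With these SEs, the difference between the receptors was measured more closely for KIF5A than for the other 31 of the 88 tested there. Its sign in that comparison was not stable, since other scalings put it between 0.08 and 0.26.

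The related heavy chains KIF5B and KIF5C did not follow it. KIF5B, the ubiquitous form, had 0, 268 and 61 counts in Input, 357, 0 and 189 with DCC-IP and 6, 0 and 76 with Nrp1-IP, from 0 to 40.4 CPM within a single group. KIF5C had between 0 and 34 counts in a library. KLC1, the light chain that links conventional kinesin to cargo, had 15, 25 and 39 counts in Input, 44, 76 and 59 with DCC-IP and 97, 54 and 90 with Nrp1-IP. All 3 Nrp1-IP libraries (4.98 to 9.08 CPM) were above all 3 of Input (1.94 to 4.92), and the log2 fold change was 1.15 (SE 0.63, adjusted p = 0.343 by the quasi-likelihood test of edgeR, Benjamini-Hochberg adjusted). KLC2 had 0, 3 and 1 counts in Input, 2, 0 and 69 with DCC-IP and 6, 1 and 9 with Nrp1-IP. KLC4 had 0, 1 and 0 in Input, 0, 7 and 0 with DCC-IP and 11, 4 and 0 with Nrp1-IP.

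KIF21A, a kinesin of axons and growth cones whose human mutations cause an eye movement disorder, was the only one of the 88 that the quasi-likelihood test called between the receptors. It had 457, 396 and 3170 counts in Input, 1747, 918 and 7648 with DCC-IP and 321, 395 and 653 with Nrp1-IP. In CPM, DCC-IP replicates were at 198, 73.6 and 531, Nrp1-IP at 30.1, 36.4 and 49.1, and Input at 59.0, 47.4 and 400. Every DCC-IP library was above every Nrp1-IP library, replicate 3 was the highest in each group, and Input overlapped with both pulldowns. Taken by replicate number, each Input library lay below its DCC-IP library and above its Nrp1-IP library.

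For KIF21A, Nrp1-IP over DCC-IP gave a log2 fold change of -2.90 (SE 0.66, adjusted p = 0.0451 by the quasi-likelihood test of edgeR, Benjamini-Hochberg adjusted). Over Input it was 0.86 in DCC-IP (SE 0.97, adjusted p = 0.673) and -2.12 in Nrp1-IP (SE 0.85, adjusted p = 0.199), neither of them called. With the replicate number as a block, DCC-IP over Input was 1.05 (SE 0.31, adjusted p = 0.0727, same test). Nrp1-IP over Input was then -1.35 (SE 0.56, adjusted p = 0.18), and again neither was called. Nrp1-IP over DCC-IP was -1.52 without DCC-IP replicate 3 (adjusted p = 0.124, same test). Each of the 6 fits that left out a library lost the call, apart from the fit without DCC-IP replicate 2. Over all genes, the main fit between the receptors called 70 lower. It was 29, 70 and 56 without DCC-IP replicates 1, 2 and 3, and 5, 10 and 16 without Nrp1-IP replicates 1, 2 and 3. Without Input replicate 3, the values over Input were 2.48 in DCC-IP and -0.53 in Nrp1-IP, neither of them called. Between the receptors, the call was also lost with RLE size factors (adjusted p = 0.0649), with library size only (0.106), with MAP1B removed (0.083) and with all 9 libraries in one fit (0.125), all by the same test, at log2 fold changes of -2.84, -2.89, -2.75 and -2.79. The call was kept by the exact test (adjusted p = 0.00446), the likelihood ratio test (0.00323) and DESeq2 (0.0029), and by the quasi-likelihood test without the filter (0.000252) and with 10 counts or more in every library (0.0345). In Nrp1-IP over Input, DESeq2 (adjusted p = 0.0337) and the fit without the filter (3.25e-05) called KIF21A lower. In RefSeq, KIF21A overlaps with 1 other gene, and KIF5A, KIF3B and TUBB3 overlap with none.

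KIF3B, a subunit of the heterotrimeric kinesin-2 motor, was the only one of the 88 that the quasi-likelihood test called between a pulldown and Input. It had 8, 24 and 10 counts in Input, 8, 311 and 91 with DCC-IP and 90, 126 and 171 with Nrp1-IP. All Nrp1-IP libraries (8.43 to 12.9 CPM) lay above all Input libraries (1.03 to 2.87 CPM), while DCC-IP ran from 0.906 to 24.9 CPM and covered both. Nrp1-IP over Input gave a log2 fold change of 2.79 (SE 0.60, adjusted p = 0.043 by the quasi-likelihood test of edgeR, Benjamini-Hochberg adjusted). DCC-IP over Input gave 2.85, with a larger error (SE 1.35, adjusted p = 0.262), and Nrp1-IP over DCC-IP gave -0.25 (SE 1.08). Each of the 6 fits without 1 library kept the direction (2.38 to 3.22) and lost the call, and the adjusted p lay between 0.0619 and 0.223 in that test. Over all genes, the fits without Nrp1-IP replicate 1, 2 or 3 each called 0 higher, against 126 in the main fit. Those without Input replicates 1, 2 and 3 called 3, 36 and 111 higher. The call of KIF3B was also lost with RLE size factors (adjusted p = 0.0554), without the filter (0.0528) and with all 9 libraries in one fit (0.31), at log2 fold changes of 2.57, 2.66 and 2.66. It was kept with library size only (adjusted p = 0.0322), and by the exact test (0.00422), the likelihood ratio test (0.00334) and DESeq2 (0.00153).

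The partner subunit KIF3A had 10, 19 and 45 counts in Input, 7, 80 and 412 with DCC-IP and 60, 21 and 53 with Nrp1-IP. Nrp1-IP over Input stood at a log2 fold change of 0.37 (SE 0.82), and the groups overlapped. KIF3C, which can replace KIF3B in the motor, had 8, 17 and 6 counts in Input, 0, 6 and 0 with DCC-IP and 36, 0 and 49 with Nrp1-IP. KIF3A and KIF3C, like KIF14, KIF15, KIF1B, KIF4A, KIF5C and the dynein subunits DYNC1I2, DYNC1LI2, DYNC2LI1, DYNC1I1 and DYNC1H1 and the dynactin subunit DCTN5, were picked for description after their values were seen.

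**Figure D2:**
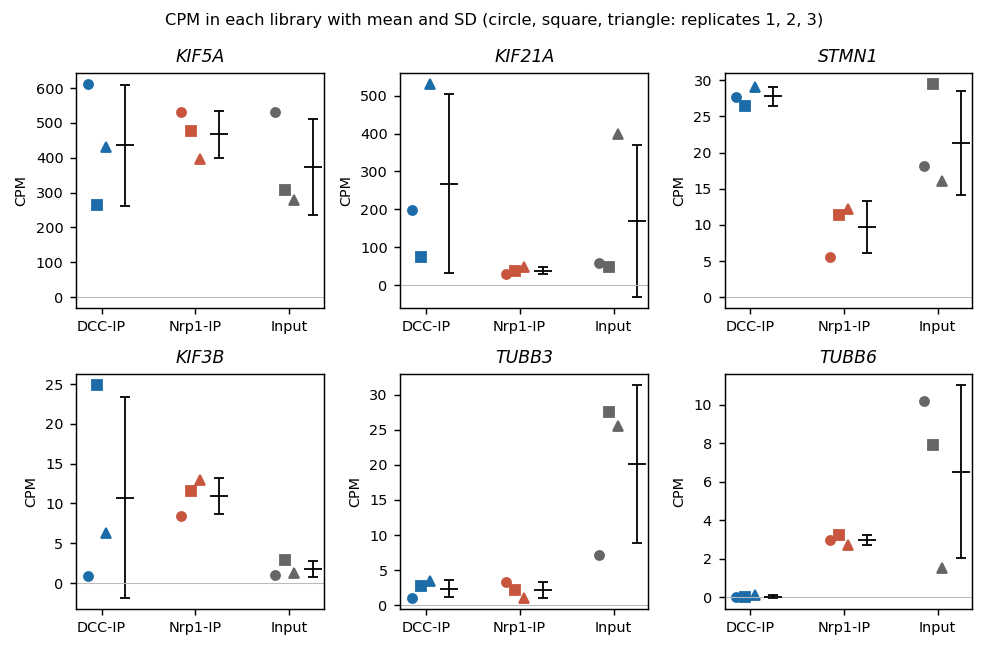
CPM of KIF5A, KIF21A, STMN1, KIF3B, TUBB3 and TUBB6 in each library (linear axes, coloured points), with the mean and SD of 3 libraries per group in black. With TMM factors, KIF5A overlaps in all groups, Nrp1-IP is lowest for STMN1, Input is highest for TUBB3, and TUBB6 is at or near 0 in DCC-IP.

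Kinesins of cell division had larger sums in the pulldown libraries than in the Input libraries. In this set of 13, chosen after values were seen, are the spindle depolymerase KIF2C, the chromosome alignment motor KIF18A, the spindle motors KIF11 and KIF15 and the midzone and cytokinesis motors KIF4A, KIF14, KIF20A and KIF23. Summed, they were at 26.1, 38.8 and 47.3 CPM in Input, 87.2, 53.6 and 79.0 with DCC-IP and 74.3, 72.6 and 79.6 with Nrp1-IP. Each pulldown library lay above each Input library. Without KIF2C, the sums were 20.8, 17.5 and 38.6 in Input, 46.3, 33.2 and 57.5 with DCC-IP and 38.8, 39.2 and 39.7 with Nrp1-IP, so that DCC-IP replicate 2 fell below Input replicate 3. These sums hold KIF18B, which was uneven, at 0, 0.598 and 29.9 CPM in Input. It was at 12.1, 1.28 and 30.9 CPM with DCC-IP and 1.5, 4.8 and 7.83 with Nrp1-IP. Of the 9 tested in Nrp1-IP over Input, 6 had a positive and 3 a negative log2 fold change (median 0.70, against 0.06 for all genes), and the quasi-likelihood test called none of them, while the exact test, the likelihood ratio test and DESeq2 called KIF18A. In DCC-IP over Input, 6 of 8 were positive (median 1.28, against 0.16).

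KIF2C had 41, 178 and 69 counts in Input, 361, 254 and 310 with DCC-IP and 380, 362 and 530 with Nrp1-IP. Input replicate 2 (21.3 CPM) reached the lower DCC-IP libraries (20.4 and 21.5 CPM) and stayed below Nrp1-IP (33.4 to 39.9 CPM). Nrp1-IP over Input stood at a log2 fold change of 1.77 (SE 0.53, adjusted p = 0.10 by the quasi-likelihood test of edgeR, Benjamini-Hochberg adjusted). KIF18A had 6, 10 and 6 counts in Input, 1, 53 and 33 with DCC-IP and 127, 29 and 57 with Nrp1-IP, and its log2 fold change over Input was 2.88 in Nrp1-IP (SE 0.82, adjusted p = 0.0883 by the same test). The exact test (adjusted p = 0.0305), the likelihood ratio test (0.0248) and DESeq2 (0.0222) called KIF18A. KIF23, which bundles midzone microtubules in cytokinesis, had 19, 37 and 12 counts in Input, 37, 224 and 38 with DCC-IP and 178, 62 and 83 with Nrp1-IP, at 1.90 in Nrp1-IP over Input (SE 0.69, adjusted p = 0.159). For all 3 genes Nrp1-IP did not overlap with Input, and none passed the quasi-likelihood test.

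The 13 kinesins of cargo transport (KIF1A to KIF1C, KIF3A to KIF3C, KIF5A to KIF5C, KIF13A, KIF13B, KIF16B and KIF17) showed no such split in their sums. Their fold changes over Input leaned the same way. In DCC-IP over Input, 6 of 8 tested were positive (median 0.57, against 0.16 for all genes). In Nrp1-IP over Input, 5 of 9 were positive (median 0.37, against 0.06), among them KIF3B. Apart from KIF5A, they summed to 27.6, 61.8 and 44.4 CPM in Input, 66.1, 43.5 and 80.9 with DCC-IP and 29.5, 30.5 and 51.9 with Nrp1-IP, with Input overlapping both pulldowns. In Nrp1-IP over DCC-IP, 6 of 7 tested had a negative log2 fold change (median -0.47, against -0.27 for all genes), and none of the 7 was called by the quasi-likelihood test.

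Dynein subunits were low throughout. The best read was DYNLL1, a light chain shared by dynein and other complexes, with 82, 31 and 58 counts in Input, 12, 49 and 31 with DCC-IP and 33, 38 and 46 with Nrp1-IP. Its Nrp1-IP libraries (3.09 to 3.50 CPM) were all below Input (3.71 to 10.6 CPM) with TMM factors and overlapped with it without them, at a log2 fold change of -1.06 (SE 0.63, adjusted p = 0.378 by the quasi-likelihood test of edgeR, Benjamini-Hochberg adjusted). DYNC1LI1, a light intermediate chain that binds cargo adaptors, had 1, 33 and 19 counts in Input, 26, 24 and 128 with DCC-IP and 12, 13 and 23 with Nrp1-IP. All its DCC-IP libraries (1.92 to 8.88 CPM) were above Nrp1-IP (1.12 to 1.73 CPM), and the log2 fold change was -1.88 (SE 1.13, adjusted p = 0.456, same test). DYNC1LI2, the other light intermediate chain, had 3, 1 and 20 counts in Input, 52, 34 and 143 with DCC-IP and 20, 30 and 52 with Nrp1-IP. Among the 36 genes tested in DCC-IP over Input, and with TMM factors, it was the single one whose DCC-IP libraries all lay above Input, at 2.76 (SE 1.43, adjusted p = 0.306).

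The intermediate chain DYNC1I2 had 0, 18 and 17 counts in Input, 0, 8 and 13 with DCC-IP and 56, 27 and 12 with Nrp1-IP. In CPM the Nrp1-IP libraries ran from 0.903 to 5.24 and DCC-IP from 0 to 0.902, so the groups met with almost no gap, and they overlapped without TMM factors (log2 fold change 2.23, SE 1.56). The heavy chain DYNC1H1, which holds the motor domain, had 0, 0 and 7 counts in Input, 1, 13 and 106 with DCC-IP and 0, 2 and 10 with Nrp1-IP. Most of its reads came from DCC-IP replicate 3. The neuronal intermediate chain gene DYNC1I1 was at 0 in all 9 libraries.

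Among the dynactin subunits, DCTN2, which joins the shoulder of the complex to its filament, was read evenly in the pulldowns. It had 48, 177 and 45 counts in Input, 232, 253 and 250 with DCC-IP and 327, 191 and 367 with Nrp1-IP. Input replicate 2 (21.2 CPM) was level with the pulldowns (17.3 to 30.6 CPM), whereas the other Input libraries were at 6.20 and 5.67 CPM. The log2 fold change was 1.35 for Nrp1-IP over Input (SE 0.58, adjusted p = 0.227 by the quasi-likelihood test of edgeR, Benjamini-Hochberg adjusted) and 1.04 for DCC-IP over Input (SE 0.81, adjusted p = 0.52). DCTN6, a subunit of the pointed end of the filament, had 16, 18 and 14 counts in Input, 0, 0 and 6 with DCC-IP and 1, 1 and 2 with Nrp1-IP. Both pulldowns lay below every Input library for DCTN6, at -3.42 for DCC-IP (SE 1.83, adjusted p = 0.323) and -3.92 for Nrp1-IP (SE 1.08, adjusted p = 0.0806), and neither difference was called by the same test. The exact test (adjusted p = 0.0102) and the likelihood ratio test (0.0059) called DCTN6 lower in Nrp1-IP. DCTN3 had 49, 9 and 52 counts in Input, 1, 44 and 231 with DCC-IP and 31, 0 and 0 with Nrp1-IP, and the groups overlapped.

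**Figure D3:**
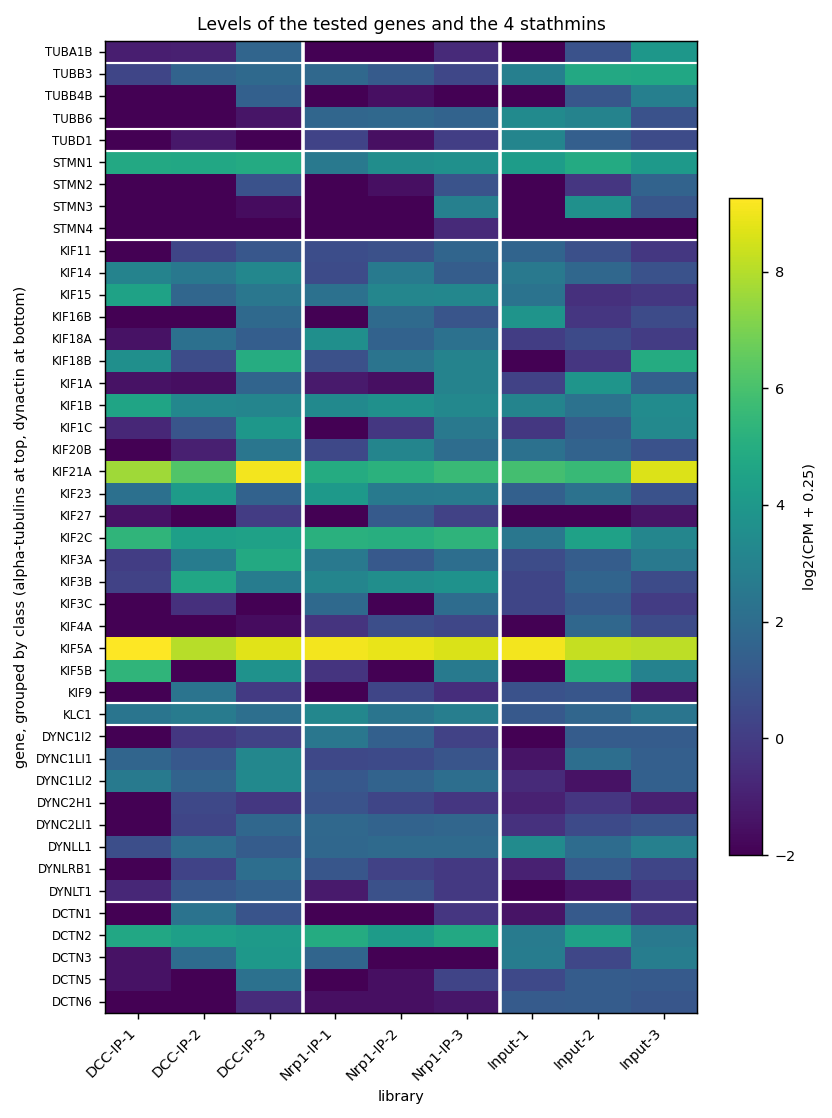
Levels of 44 genes in the 9 libraries, as log2(CPM + 0.25), with a row for each of the 42 genes tested and for the stathmins STMN2 and STMN4, grouped by class. Rows are read across and not against each other. KIF5A is light in all 9 libraries, and many rows turn from dark to light between replicates of a group.

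Taking the genes as a list, few were called. In Nrp1-IP over DCC-IP, 32 of the 88 were tested. The quasi-likelihood test called none higher, while 2.56% of all 6439 genes tested were, and 1 was called lower (KIF21A), while 1.09% of all genes were. At an unadjusted p under 0.05, 1 was higher (TUBB6, against 7.87% of all genes) and 2 were lower (KIF21A and STMN1, against 9.49%). The exact test, the likelihood ratio test and DESeq2 each called 1 higher, TUBB6, and 1 lower, KIF21A, against 4.29%, 4.57% and 6.34% of all genes higher and 2.5%, 3.01% and 4.61% lower. Groups did not overlap for 2 genes higher in Nrp1-IP (DYNC1I2 and TUBB6, against 15.6% of all genes) and 3 lower (DYNC1LI1, KIF21A and STMN1, against 10.9%). The median log2 fold change of the 32 was -0.30, next to -0.27 for all genes. Without DCC-IP replicate 3 it was 0.36 for the 36 genes then tested, next to 0.32 for all genes. Without DCC-IP replicate 2 it was 0.11 for 40, against -0.02 for all genes.

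In DCC-IP over Input, 36 were tested, and edgeR's quasi-likelihood test called none in either direction, against 1.46% of all 6223 genes higher and 3.52% lower. At an unadjusted p under 0.05 there were 0 higher (10.8% of all genes) and 3 lower (TUBB3, TUBB6 and TUBD1, against 11.1%). Other tests called none higher, and lower they called TUBB6 (exact test), TUBB6 and TUBD1 (likelihood ratio test) and TUBB3, TUBB6 and TUBD1 (DESeq2). These tests called 3.84%, 4.72% and 8.16% of all genes higher and 5.09%, 5.64% and 8.42% lower. Groups did not overlap for 1 higher (DYNC1LI2, against 15.2%) and 4 lower (DCTN6, TUBB3, TUBB6 and TUBD1, against 18.2%). Without TMM factors, DCTN2, KIF14, KIF15, KIF1B and KIF2C joined the first, which made 6 higher (20.4% of all genes), and 4 stayed lower (14.2%). The median of the 36 was 0.74, against 0.16 for all genes. Without DCC-IP replicate 3 it turned to -0.77 for the 39 genes then tested, against -0.03 for all genes. With the replicate number as a block, calls over all genes went from 91 to 238 higher and from 219 to 477 lower, and calls among the 36 stayed at 0.

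In Nrp1-IP over Input, 35 were tested. The quasi-likelihood test called 1 higher (KIF3B), against 1.94% of all 6501 genes, and 0 lower, against 3.03%. At an unadjusted p under 0.05 there were 5 higher (DCTN2, KIF18A, KIF23, KIF2C and KIF3B, against 11.5% of all genes) and 3 lower (DCTN6, KIF21A and TUBB3, against 10.1%). The exact test, the likelihood ratio test and DESeq2 each called 2 higher and 2 lower, against 4.78%, 5.26% and 5.80% of all genes higher and 5.37%, 5.68% and 9.06% lower. KIF3B, KIF18A and TUBB3 were called by each of these, DCTN6 by the exact and likelihood ratio tests, and KIF21A by DESeq2. Groups did not overlap for 6 higher (DYNC2LI1, KIF18A, KIF23, KIF2C, KIF3B and KLC1, against 17.7%) and 6 lower (DCTN5, DCTN6, DYNLL1, STMN1, TUBB3 and TUBD1, against 13.8%). Without TMM factors these were 10 higher (27.0% of all genes) and 3 lower (8.68%), as DCTN2, KIF15, KIF1B and KIF5A joined the first and DCTN5, DYNLL1 and STMN1 left the second. The median was -0.38 for the 35 and 0.06 for all genes. Without Input replicate 1 it was -0.72 for the 45 genes then tested, against -0.15 for all genes. Without Input replicate 2 it was 0.13 for 41, against 0.04 for all genes. Without Input replicate 3 it was -0.09 for 39, against 0.05 for all genes. Both comparisons with Input share the Input libraries, so their values stand side by side and are not independent.

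**Figure D4:**
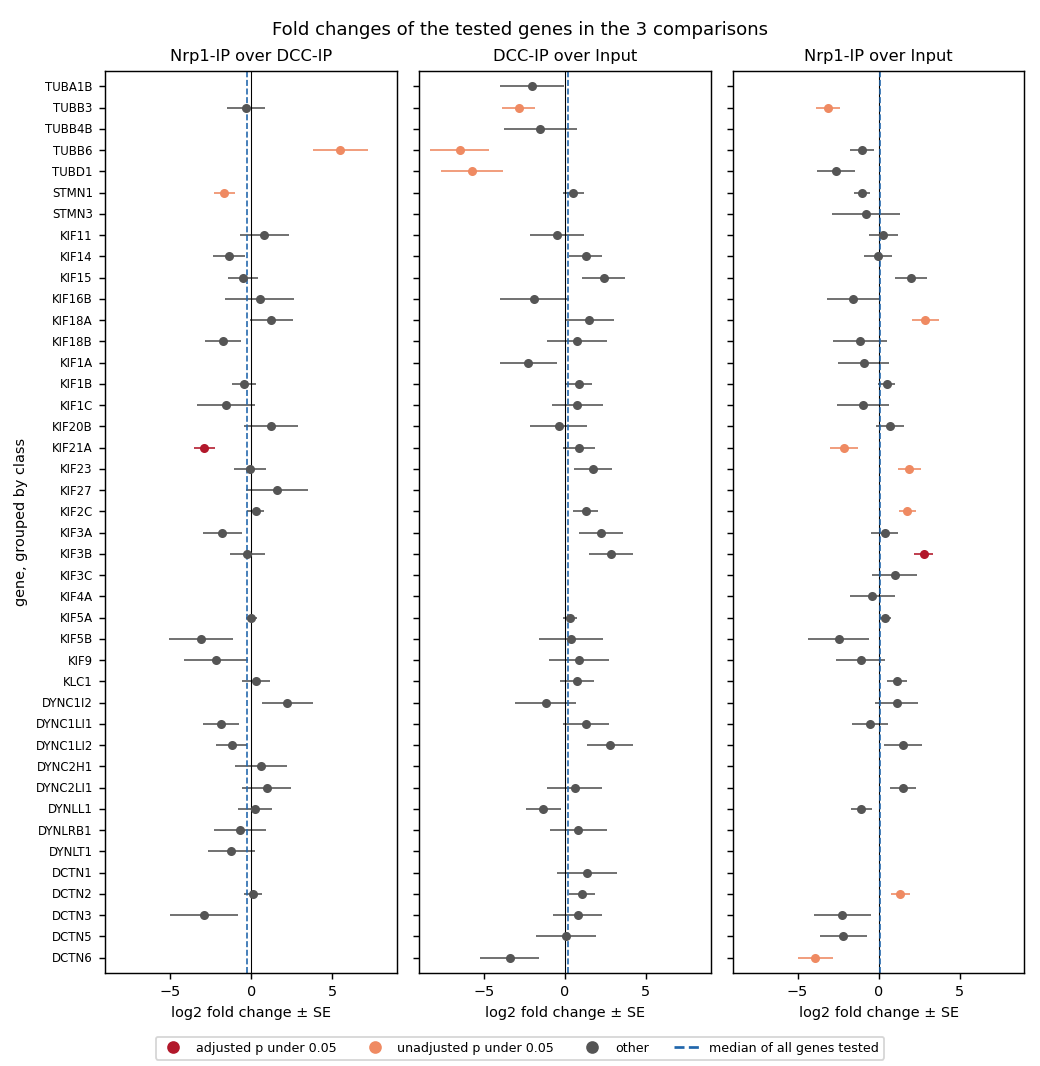
Log2 fold changes with SE from edgeR for the 42 genes tested, in 3 panels for the 3 comparisons, with the median of all genes as a dashed line. KIF21A (Nrp1-IP over DCC-IP) and KIF3B (Nrp1-IP over Input) are the points with an adjusted p under 0.05 by the quasi-likelihood test, and error bars of several units mark genes read in few libraries.

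The spread between replicates set how far these comparisons could reach. For the 14 genes read in all libraries, the ratio of the highest to the lowest replicate had medians of 3.30 in Input, 2.82 with DCC-IP and 1.78 with Nrp1-IP, against 2.26, 3.34 and 1.68 for all 3185 genes so read. The widest were KIF3A in DCC-IP (36.1), KIF14 in Nrp1-IP (4.77) and KIF15 in Input (9.71). Data were also simulated with 1 dispersion for all genes, the common value of each comparison. In Nrp1-IP over DCC-IP (6439 genes, dispersion 0.862), the quasi-likelihood test recovered 0% of 200 genes changed by 3 on the log2 scale. It recovered 0% in DCC-IP over Input (6223 genes, 1.05) and 9% in Nrp1-IP over Input (6501 genes, 0.579). A large difference could thus go uncalled in a gene with that dispersion. In the data genes differed in spread, and 165 were called higher and 70 lower between the receptors. The simulated shares therefore do not hold gene by gene. Calls over all genes split differently under other scalings: in place of 126 higher and 197 lower, library size only gave 351 and 167 in Nrp1-IP over Input, and RLE size factors gave 85 and 265. In DCC-IP over Input, library size only gave 141 and 167 in place of 91 and 219, and in Nrp1-IP over DCC-IP, MAP1B removed gave 232 and 41 in place of 165 and 70. Library size only moved the median of all genes from 0.06 to 0.44 in Nrp1-IP over Input and from 0.16 to 0.48 in DCC-IP over Input.

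Genes that work with tubulins and motors were taken from 6 lists, of 90 genes in all, with 85 of them in the files. In Nrp1-IP over DCC-IP, 30 were tested and edgeR's quasi-likelihood test called none (unadjusted p under 0.05 for 2 higher and 1 lower). In DCC-IP over Input 1 of 32 was called higher and 1 lower, against 1.46% and 3.52% of all genes, and in Nrp1-IP over Input 1 of 30 was called higher and 2 lower, against 1.94% and 3.03%. All of these calls were on the list of dynein and dynactin partners. The other kinesins and cargo adaptors, the tubulin folding cofactors, the gamma-tubulin ring complex, the tubulin modifying enzymes and the severing enzymes had none, with 7, 3, 6, 3 and 2 genes tested in Nrp1-IP over Input.

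NINL, a centrosomal adaptor that binds dynein and dynactin, was higher in both pulldowns, with 301, 618 and 284 counts in Input, 3464, 4248 and 3150 with DCC-IP and 1542, 3134 and 2492 with Nrp1-IP. Its log2 fold change was 2.77 in DCC-IP over Input (SE 0.49, adjusted p = 0.019 by the quasi-likelihood test of edgeR, Benjamini-Hochberg adjusted) and 2.18 in Nrp1-IP over Input (SE 0.41, adjusted p = 0.0295). CAPZA1, a capping protein subunit found at the end of the dynactin filament and on actin, was lower in both, with 134042, 123855 and 100354 counts in Input, 35442, 32580 and 32814 with DCC-IP and 27079, 30966 and 35755 with Nrp1-IP. CAPZA1 was at -2.24 in DCC-IP (SE 0.26, adjusted p = 0.00513) and at -2.39 in Nrp1-IP (SE 0.23, adjusted p = 0.00518) by the same test. ACTR10, an actin-related protein at the pointed end of the filament, had 128, 94 and 129 counts in Input, 23, 52 and 66 with DCC-IP and 16, 30 and 19 with Nrp1-IP. ACTR10 was called lower in Nrp1-IP over Input (-2.89, SE 0.57, adjusted p = 0.0337), and in DCC-IP it was at -1.77 (SE 0.86, adjusted p = 0.275). The groups did not overlap in any of these comparisons. With a library left out, the call of NINL was lost in 3 of 6 fits in DCC-IP and 5 of 6 in Nrp1-IP, that of CAPZA1 in 3 of 6 in each, and that of ACTR10 in 5 of 6. The libraries in question were DCC-IP replicates 1 and 2 and Input replicate 1 for NINL in DCC-IP, all but Input replicate 2 for NINL in Nrp1-IP, the 3 pulldown libraries for CAPZA1, and all but Input replicate 3 for ACTR10. Over all genes, DCC-IP over Input had 91 calls higher and 219 lower in the main fit. It had 0 and 0, 1 and 0, and 139 and 67 without DCC-IP replicates 1 to 3. With Input replicate 1 left out it had 1 and 30. Nrp1-IP over Input had 126 and 197 in the main fit. It had 0 and 0, 0 and 7, and 0 and 7 without Nrp1-IP replicates 1 to 3. Without Input replicates 1 to 3 it had 3 and 74, 36 and 126, and 111 and 330. The call of CAPZA1 in DCC-IP was also lost with MAP1B removed (adjusted p = 0.0542), and those of NINL (0.0507) and ACTR10 (0.106) in Nrp1-IP with all 9 libraries in one fit.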

How the data were processed

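RNA from SH-SY5Y lysate (Input) and from pulldowns of DCC and Nrp1 was sequenced by the authors on an Illumina NextSeq, in 3 libraries per group. Reads were aligned with HISAT2 2.1.0 (hg19, per the submitters' processing notes) and counted on genes with HTSeq 0.11.0. What was deposited is raw counts for each gene symbol and library, not normalized. Which annotation and strand setting were used is not given in the sources used here, and 5 HTSeq summary lines per library were left out. Reads on no feature made up 48.7% to 55.8% of a library.

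Groups came from the sample labels. Each pair of groups was compared on its 6 libraries in edgeR 4.0.16 (R 4.3.3, limma 3.58.1) with filterByExpr (minimum count 10), TMM normalization and the quasi-likelihood test, and a gene was called where its p, adjusted after Benjamini and Hochberg over all genes tested, was under 0.05. The SE is the size of the log2 fold change divided by the square root of F. CPM uses TMM-scaled library sizes of all 9 libraries. The TMM factors ran from 0.726 to 1.39. Where a group had 1 to 3 counts in all, a ratio of summed, scaled counts with an exact binomial interval is given, and where it had 0, a bound against 3 counts over the group.

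The genes described and all lists were chosen with earlier results of these data known. Genes named are those called in any comparison, the 4 stathmins, up to 10 per comparison with the smallest unadjusted p under 0.05, the 3 with most Input counts in each class, and called genes of the 6 lists. Others are said to be picked after their values were seen. Genes that overlap in RefSeq (GRCh38.p14) were looked up by name, and 88 of the 88 were found there, 48 with an overlapping gene.

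Replicate numbers come from the labels. Over 7628 genes, deviations from the group means of libraries with the same number correlated at 0.117, 0.187 and 0.421 for DCC-IP and Input. All of these were over 0.1, while those of the other comparisons were not all so. The main test used no pairing in any comparison, and the replicate number entered only the replicate block.

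Alternatives were the exact and likelihood ratio tests, DESeq2 1.42.0, RLE size factors, library size only, MAP1B removed, other filters, all 9 libraries in one fit, the replicate block and each library left out. The fits were tested on simulated data. At a low dispersion, 100% of the changed genes were recovered in each comparison, with 3.85% to 6.98% wrong calls. Figures were drawn with Python 3.11.15 and matplotlib 3.10.9.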

Additional observations from a re-analysis of the deposited data

Results flagged for a closer look

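KIF21A drew attention because its effect over Input differed between the receptors by a test of the difference itself: Nrp1-IP over DCC-IP gave -2.90 on the log2 scale (adjusted p = 0.0451 by edgeR's quasi-likelihood test). STMN1 drew attention because all 3 Nrp1-IP libraries were below, and all 3 DCC-IP libraries above, the mean of Input. For STMN1 that pattern itself was not tested, and Nrp1-IP over DCC-IP gave -1.66 on the log2 scale (adjusted p = 0.215 by the same test).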

How the results depend on the processing

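Between Nrp1-IP and DCC-IP, the exact test, the likelihood ratio test and DESeq2 each called 1 gene higher in place of 0, and RLE size factors, library size only, MAP1B removed and all 9 libraries in one fit called 0 lower in place of 1. Leaving out a library gave 0 to 1 lower. In DCC-IP over Input, genes called lower went from 0 to 1 (exact test), 2 (likelihood ratio test), 3 (DESeq2) and 1 (TUBB6, all 9 libraries in one fit). In Nrp1-IP over Input, the exact test, the likelihood ratio test and DESeq2 called 2 higher and 2 lower in place of 1 and 0. There, genes called higher fell to 0 with RLE size factors, without a filter and with at least 10 counts in every library. The same held with all 9 libraries in one fit and in each of the 6 fits without 1 library (0 to 0). The filter of 10 counts in every library left KIF3B untested, as it had 8 counts in Input replicate 1. Genes called lower rose to 1 with RLE size factors, where 265 of all 6501 genes were lower. Without a filter, 6 of 76 tested were called lower (KIF21A, KIF5B, TUBA1A, TUBA1B, TUBB3 and TUBB4B), where 644 of all 16456 genes were. With 10 counts or more in every library it was 1, where 356 of all 3460 genes were lower. The cause of these rises was not tested. Calls over all genes moved by more than 1.5 times as well, between 67 and 408 higher and 5 and 297 lower in Nrp1-IP over DCC-IP, 0 and 508 higher and 0 and 524 lower in DCC-IP over Input, and 0 and 377 higher and 0 and 644 lower in Nrp1-IP over Input. The log2 fold change of KIF5A between the receptors changed sign, to 0.08 (DESeq2 and RLE size factors), 0.18 (library size only), 0.26 (MAP1B removed), 0.23 (at least 10 counts in every library), 0.14 (no filter) and 0.10 (all 9 libraries in one fit), and ran from -0.17 to 0.45 with a library left out.

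With the replicate block, the counts of genes called stayed at 0 higher and 1 lower, 0 and 0, and 1 and 0 in the 3 comparisons. KIF21A was at -2.55 and KIF5A at 0.02 between the receptors. The median of the 35 genes in Nrp1-IP over Input turned from -0.38 to 0.39, and that of all genes went from 0.06 to 0.2. Over all genes, calls went to 266 higher and 103 lower in Nrp1-IP over DCC-IP and to 239 and 317 in Nrp1-IP over Input. In these comparisons libraries with the same number correlated at 0.099, 0.113 and 0.361 and at 0.215, -0.004 and 0.364. Not all of these were over 0.1, although those of replicate 3 were (0.361 and 0.364). For DCC-IP and Input, Input replicate 1 correlated higher with DCC-IP replicate 2 (0.136) than with DCC-IP replicate 1 (0.117). Whether libraries share more than a number was thus not settled in any comparison. Of the single genes named, 117 values with a library left out and 200 under other settings kept their direction and side of the threshold, 30 and 10 lost a call, and 23 under other settings gained one. Depth limits the genes under the floor in most libraries, which mostly entered no test, although the fit without a filter called TUBA1A, TUBA1B and TUBB4B. Each of these 3 had 0 counts in Input replicate 1, so their calls rest on the other Input libraries.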
